A study of Homo sapiens with 6 samples.

Results

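The SR splicing factor family was examined in RNA sequencing of Huh7 cells, a human hepatoma cell line, after delivery of the circular RNA hsa_circ_0098181. The members were the 10 genes SRSF1 to SRSF7, SRSF9, SRSF10 and SRSF11, taken by gene symbol from a table of 50868 genes. Cells received either an overexpression plasmid for hsa_circ_0098181 (3 libraries) or the control plasmid (3 libraries) by lipofection. Total RNA was taken after 48 h, and nothing in the labels says whether replicates were separate cultures, so p-values measure only the spread between these libraries.

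SR proteins are nuclear RNA-binding proteins with an RNA recognition motif and a domain rich in arginine and serine, whose phosphorylation controls their location and activity. They bind enhancer sequences in exons and help U1 and U2 particles to recognise the splice sites, and several of them also escort mRNA out of the nucleus. Many SR proteins limit their own amount by splicing a poison exon into their transcripts, which sends these transcripts to nonsense-mediated decay. In liver, SRSF3 is known for its role in hepatocyte maturation, and SRSF1 is known as a proto-oncogene in several tumours.

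Library totals were 14138262, 13855167 and 12261725 counts with overexpression and 11130902, 11737892 and 12211132 counts in the control libraries. Depth thus did not overlap between the groups, and its part in the values below was not tested. SOX5, the host gene of the circle, had 1905 to 2396 CPM (counts scaled to the depth of the library) with overexpression and 31.3 to 41.8 CPM in the control libraries, which matched the labels. The plasmid carries the circle, so these counts do not separate its RNA from that of the SOX5 gene itself. All 10 hepatocyte and hepatoma markers examined were above 10 CPM in every library, with AFP at 10801 CPM or more. The summed markers of leukocytes and of fibroblasts reached at most 4.67 and 14.7 CPM, and of the endothelial markers CDH5 had 0 counts and VWF at most 1 count, while PECAM1 had 46.9 to 59.1 CPM. Control replicate 1 stood apart. It was the highest or lowest of the 6 libraries for 53.1% of the 15055 genes tested, against 23.2% to 39.3% for the other libraries, and mitochondrial genes held 9.29% of its counts against 6.32% to 7.04% in the others. Because RNA was taken from bulk cells, a lower level per cell cannot be told apart from fewer expressing cells.

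The members shared an annotation feature. In GENCODE 29 (GRCh38) each of the 10 had at least 1 transcript marked for nonsense-mediated decay, 22 of 107 transcripts in all, while 43.2% of the 12682 protein-coding genes tested had one. 8 of the 10 had a transcript with a retained intron, against 57.3% of those coding genes. These shares were not matched for the number of annotated transcripts per gene, which ran from 2 to 19 over the members. The deposited counts summed all transcripts of a gene, so productive and poison forms could not be parted here.

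miR-18a-3p is the microRNA that the study examined together with hsa_circ_0098181, so the members were searched for its seed match. The sequences are shown because they name the members in which this microRNA could pair. Capitals mark the seed (bases 2 to 8) of the RefSeq microRNA, and in the transcripts they mark the 7 bases AGGGCAG that complement it.
hsa-miR-18a-3p: aCUGCCCUaagugcuccuucugg
SRSF7: ttaagaatagtAGGGCAGtaacagttact
SRSF10: agaaccaaagaAGGGCAGttcaagcgacc
2 of 10 members held 1 such site in the 3′ UTR of their longest coding transcript, and 18.9% of the 12512 tested coding genes with a 3′ UTR sequence did. The site of SRSF7 lay at chr2:38743974-38743980 on the minus strand (GRCh38), in transcript ENST00000313117.10. The site of SRSF10 lay at chr1:23967635-23967641 on the minus strand, in transcript ENST00000344989.10. The principal transcript of SRSF7 held its site, and that of SRSF10 did not. A match is a stretch of letters and not a measured binding site.

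No SR family member passed the correction for multiple testing after overexpression of hsa_circ_0098181. All 10 passed the filter on low counts, with 768 to 5372 counts in each library. edgeR's quasi-likelihood test called 0 of 10 at an adjusted p under 0.05, where it called 0.0399% of all 15055 genes tested. DESeq2 and limma also called 0 of 10, where they called 28 of 15055 and 5 of 11746 genes. At an unadjusted p under 0.05 there was 1 member, SRSF9, against 5.50% of all genes tested. DESeq2 had 0 members at that level, beside 660 of 15055 genes, and limma had 1, beside 708 of 11746 genes. SRSF9 was also the only 1 of 10 whose 3 values did not overlap between the groups, against 12.9% of all genes tested.

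6 members had a positive and 4 a negative log2 fold change (overexpression against control). The fitted values ran from -0.12 for SRSF4 to 0.24 for SRSF9, with a median of 0.050, while the median over all genes tested was 0.0023 and 50.5% of those genes were positive. Over the 95% intervals of all members, the lowest bound was -0.48 (SRSF4) and the highest 0.47 (SRSF9) on the log2 scale. These bounds are 0.718-fold and 1.39-fold. The standard errors ran from 0.076 to 0.15, with a median of 0.099 against 0.156 over all genes tested. Any change of 1.5-fold or more therefore lay outside the interval of every member.

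**Figure D1:**
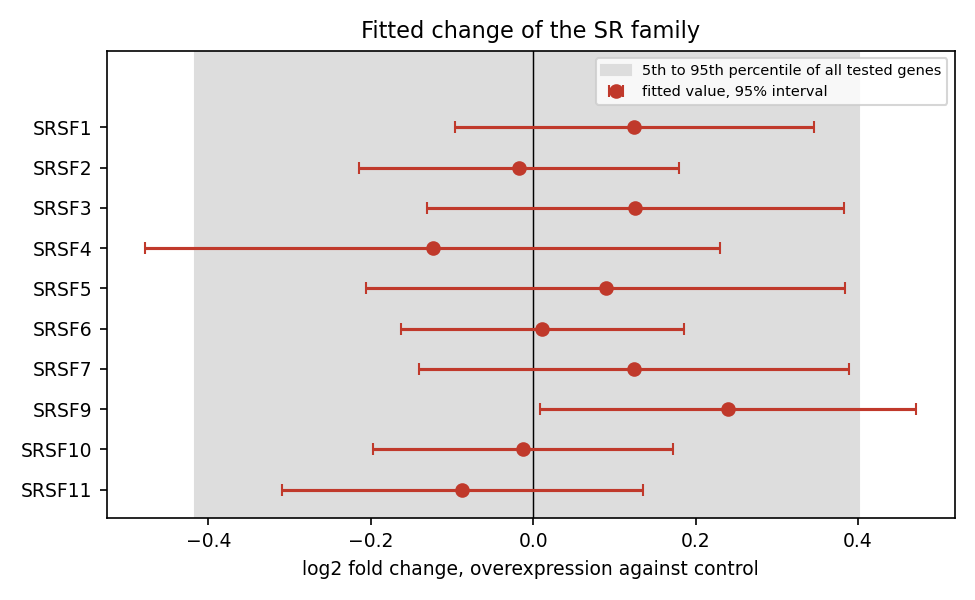
Log2 fold change of each SR gene (horizontal axis, overexpression against control) with its 95% interval from edgeR, beside the range from the 5th percentile (-0.42) to the 95th percentile (0.40) of all tested genes in grey. Every interval holds 0 except that of SRSF9.

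SRSF9 and SRSF1 are the closest relatives in the family. Both carry a pair of RNA recognition motifs. The encoded proteins, translated from the principal transcripts, were 66.8% identical over 241 aligned positions, and SRSF9 had only 9 RS or SR dipeptides against 31 in SRSF1.

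SRSF9 (ENSG00000111786, chr12:120461668-120469793, minus strand, GRCh38 as for all members) is also known as SRp30c. With overexpression it had 119, 106 and 108 CPM, and without it 84.1, 96.8 and 101 CPM, in the order of the replicate numbers used throughout. Every overexpression library lay above every control library, and control replicate 1 was the lowest. The means were 111 ± 6.61 and 94.0 ± 8.81 CPM (SD, n = 3 each). edgeR fitted a log2 change of 0.24 (SE 0.10, 95% interval 0.0090 to 0.47), or 1.18-fold, at an unadjusted p of 0.0434 and an adjusted p of 0.797. On the 6 log2 values alone, an exact permutation test (two-sided) gave p = 0.1, the smallest this design allows.

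SRSF9 overlaps GATC, a gene for a subunit of a mitochondrial amidotransferase, which is read from the opposite strand at its 3′ end. The use of strand in the counting is not given in the sources used here, so reads of the shared stretch cannot be assigned with certainty. GATC had 62.0, 52.9 and 55.5 CPM with overexpression and 40.2, 61.0 and 52.5 CPM in the control libraries, and these groups overlapped. With the counts of both genes summed, the log2 fold change was 0.21 and the unadjusted p rose to 0.0994. Without control replicate 1 the SRSF9 value was 0.17 (unadjusted p 0.0939), and with any 1 of the 6 libraries removed it ran from 0.17 to 0.30. The unadjusted edgeR p was between 0.0666 and 0.136 in 5 of those 6 fits, and 0.0322 without control replicate 3.

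SRSF1 (ENSG00000136450, chr17:58003360-58007346, minus strand) was among the first SR proteins described and promotes the inclusion of exons. Its level was 354, 288 and 329 CPM with overexpression and 302, 287 and 301 CPM in the control libraries. Overexpression replicates 1 and 3 lay above all control libraries, but replicate 2 lay among them. Its fitted log2 change was 0.12 (SE 0.096, edgeR adjusted p 0.808), and 0.055 without overexpression replicate 1. The overlapping RP11-159D12.6 and RP11-159D12.5 held only 148 and 33 counts over the 6 libraries, and summing them with SRSF1 left 0.12.

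SRSF3 and SRSF7 each have a single RNA recognition motif, and both act as adaptors for mRNA export. Their proteins were 58.5% identical over 171 aligned positions. SRSF3 (ENSG00000112081, chr6:36594353-36605600, plus strand) had 249.97, 249 and 250.5 CPM with overexpression and 192, 255 and 239 CPM in the control libraries. The overexpression libraries differed by an SD of 0.351% of their mean, less than the counting error of 1.72%, while the control libraries had an SD of 14.3% of theirs. SRSF7 (ENSG00000115875, chr2:38743599-38751494, minus strand), which also carries a zinc knuckle, had 149, 158 and 142 CPM against 116, 147 and 150.2 CPM.

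Control replicate 1 was the lowest library for both genes. The other control libraries of SRSF7 lay among its overexpression libraries, and those of SRSF3 lay 1 above and 1 below. SRSF3 had a fitted log2 change of 0.13 (SE 0.11, edgeR adjusted p 0.832) and SRSF7 one of 0.12 (SE 0.12, edgeR adjusted p 0.833). Without control replicate 1 these values were 0.017 and 0.016. SRSF3 and SRSF7 had nearly equal fitted values both with and without that library. Any part of the miR-18a-3p site of SRSF7 in its values was not tested.

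SRSF4, SRSF5 and SRSF6 form a subgroup with a pair of RNA recognition motifs and long arginine-serine domains. SRSF4 held 113 RS or SR dipeptides in 494 residues, the most of the family, SRSF6 held 76 in 344 and SRSF5 held 52 in 272. SRSF6 was 62.1% identical to SRSF4 and 62.5% identical to SRSF5.

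SRSF6 (ENSG00000124193, chr20:43457928-43464247, plus strand) was the steadiest member. It had 380, 370.3 and 358 CPM with overexpression and 373, 366 and 361 CPM in the control libraries. The control libraries lay inside the range of the overexpression libraries, and the fitted log2 change was 0.011 (SE 0.076, 95% interval -0.16 to 0.19). SRSF5 (ENSG00000100650, chr14:69726900-69772005, plus strand) had 112, 104 and 117 CPM against 123, 101 and 88.5 CPM. Its control libraries spanned the overexpression libraries on both sides, for a fitted log2 change of 0.089 (SE 0.13).

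SRSF4 (ENSG00000116350, chr1:29147743-29181987, minus strand) had the lowest mean CPM of the family. Its level was 78.9, 66.7 and 62.1 CPM with overexpression and 92.7, 66.2 and 67.5 CPM in the control libraries. Control replicate 1 was the highest library and the other control libraries lay among the overexpression values. Its fitted log2 change was -0.12, with the largest SE of the family (0.15), and without control replicate 1 it turned to 0.053. For SRSF5, leaving out control replicate 1 gave 0.23 (unadjusted p 0.0513) and leaving out control replicate 3 gave -0.016.

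SRSF2, SRSF10 and SRSF11 had fitted values slightly under 0. SRSF2 (ENSG00000161547, chr17:76734115-76737374, minus strand), also known as SC35 and used as a marker of nuclear speckles, had 98.4, 105 and 96.0 CPM with overexpression and 104, 96.5 and 103 CPM in the control libraries. The groups overlapped, and the fitted log2 change was -0.018 (SE 0.086). MFSD11 and RP11-318A15.7 overlap it on the opposite strand with 11.4 to 15.2 CPM and with 16 counts in all, and the summed counts gave -0.023.

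SRSF10 (ENSG00000188529, chr1:23964804-23980927, minus strand), also known as SRp38, becomes a repressor of splicing when it loses its phosphates in mitosis or heat shock. It had 234, 252 and 247 CPM with overexpression and 256, 248 and 236 CPM in the control libraries, and the ranges of the groups overlapped almost wholly. Its fitted log2 change was -0.013 (SE 0.080, 95% interval -0.20 to 0.17). SRSF11 (ENSG00000116754, chr1:70205682-70253052, plus strand) encodes a protein that contacts the splice-site factor U2AF. It had 196, 179 and 174 CPM against 207, 175 and 200.4 CPM, groups that overlapped, for a fitted log2 change of -0.087 (SE 0.097). Over the 10 members the edgeR adjusted p ran from 0.797 to 0.981.

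**Figure D2:**
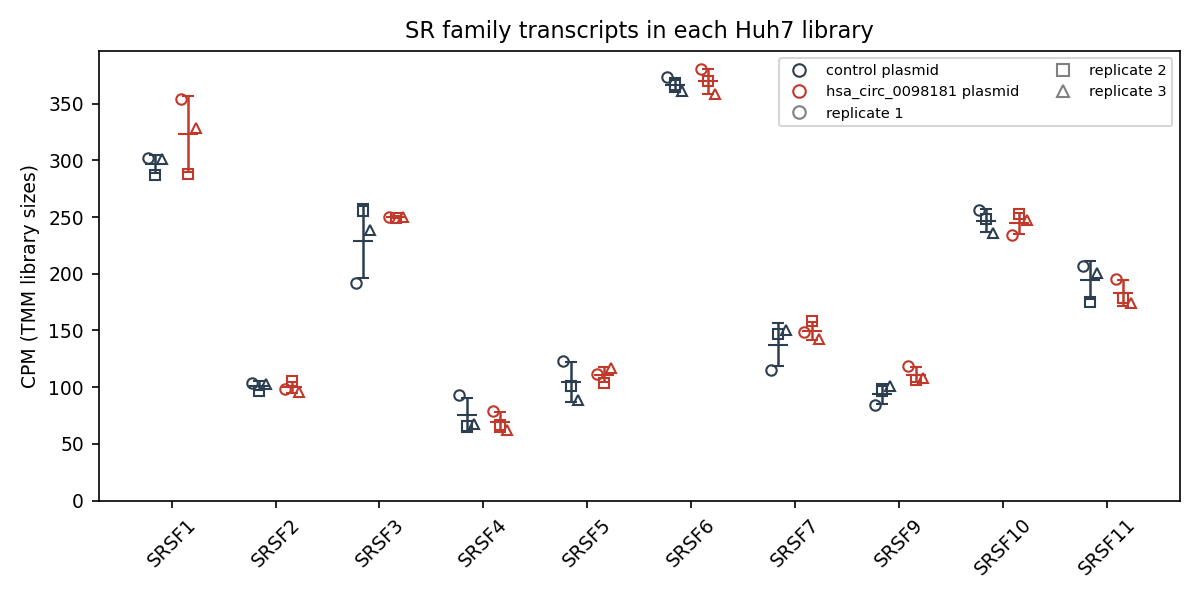
Level of each SR gene in each library (vertical axis, CPM with TMM library sizes), as 3 points per group with the mean and SD, with control libraries in dark blue and overexpression libraries in red. SRSF6 sits between 358 and 380 CPM in all libraries, and SRSF9 is the gene whose groups do not overlap.

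Summed over the 10 members, the family held 1971, 1879 and 1884 CPM with overexpression and 1850.04, 1839 and 1848 CPM in the control libraries. These sums did not overlap, as was the case for 12.9% of all single genes tested and for 1 of the 10 members. A difference between the sums was not tested. The means were 1911 ± 52.0 and 1846 ± 5.78 CPM (SD, n = 3 each).

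Control replicate 1 differed from the other libraries member by member rather than in the sum. It was the highest library for 4 members (SRSF4, SRSF5, SRSF10 and SRSF11) and the lowest for 3 (SRSF3, SRSF7 and SRSF9), and so stood at an end for 7 of 10, where it did so for 53.1% of all genes tested. Its deviations from the gene's mean over the 6 libraries, on the log2(CPM + 0.5) scale, were -0.31 for SRSF3, -0.31 for SRSF7, -0.28 for SRSF9, 0.20 for SRSF5 and 0.37 for SRSF4. The part of this library's higher mitochondrial share in these values was not tested.

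**Figure D3:**
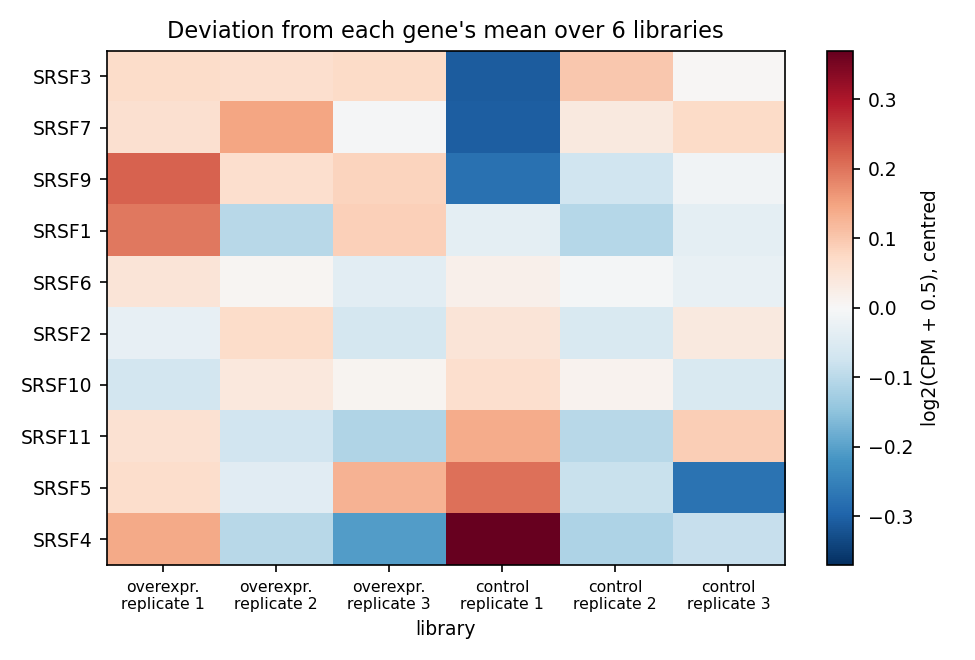
Deviation of each SR gene (rows, ordered by control replicate 1) from its own mean over the 6 libraries (columns), in log2(CPM + 0.5). The strongest colours stand in control replicate 1, from -0.31 for SRSF3 to 0.37 for SRSF4.

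The members did not move as 1 block across the libraries. Over the 45 pairs of members, Pearson's r across the 6 libraries had a median of 0.0050, and 23 pairs were positive. The most alike pair was SRSF3 and SRSF7 with an r of 0.91, and the most opposed was SRSF3 and SRSF4 with an r of -0.83. These values describe 6 libraries that share the extreme values of control replicate 1. Outside the family, the genes whose profile was most like the mean profile of the members were EIF2B1 (r = 0.99), AC006273.5 (r = 0.98) and UBE2Q2 (r = 0.98), chosen among 15055 genes over 6 libraries.

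Ratios between close relatives were compared within each library, since such ratios do not depend on the scaling of libraries. The count of SRSF1 was 2.99, 2.70 and 3.05 times that of SRSF9 with overexpression, and 3.59, 2.97 and 2.99 times in the control libraries. Control replicate 1 was the highest and the other control libraries lay among the overexpression libraries, a mean log2 difference of -0.12, which was -0.034 without control replicate 1. The ratio of SRSF3 to SRSF7 was 1.68, 1.57 and 1.76 against 1.66, 1.74 and 1.59, a log2 difference of 0.0035. This was the closest match of the 4 pairs.

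The ratio of SRSF4 to SRSF6 was 0.208, 0.180 and 0.173 with overexpression and 0.249, 0.181 and 0.187 in the control libraries, a log2 difference of -0.13 that turned to 0.020 without control replicate 1. The ratio of SRSF5 to SRSF6 was 0.294, 0.281 and 0.327 against 0.331, 0.276 and 0.245, a log2 difference of 0.090 that turned to -0.011 without control replicate 3. The groups overlapped for all 4 pairs. By exact permutation tests on the log2 ratios (two-sided), the pairs gave p = 0.6, 1, 0.5 and 0.5 in the order given, and 0.8, 1, 0.8 and 0.8 after Benjamini-Hochberg adjustment over the 4 pairs, in a design that cannot go below 0.1.

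Levels were compared between members per length, as CPM per kilobase of merged GENCODE 29 exons, over all 6 libraries. SRSF1 was the highest at 92.9 ± 7.86 and SRSF6 followed at 80.2 ± 1.77 (SD, n = 6). SRSF7 with 35.5 ± 3.63, SRSF3 with 33.6 ± 3.32 and SRSF2 with 33.3 ± 1.34 formed a middle group (SD, n = 6 each). SRSF9 at 27.4 ± 3.11, SRSF10 at 23.9 ± 0.850, SRSF11 at 22.2 ± 1.69 and SRSF5 at 20.1 ± 2.33 came next (SD, n = 6 each). SRSF4 was the lowest at 8.13 ± 1.29, which is 11.4-fold below SRSF1 by this length.

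Of the 9 pairs of neighbours in this order, 4 had ranges that did not overlap, namely SRSF1 and SRSF6, SRSF6 and SRSF7, SRSF2 and SRSF9, and SRSF5 and SRSF4. SRSF7 was above SRSF3 in 6 of 6 libraries although their ranges overlapped. SRSF3 and SRSF2 kept their order in 4 of 6 libraries, as did SRSF10 and SRSF11, so these neighbours did not differ beyond their spread. SRSF9 was above SRSF10 in 5 of 6 libraries, and SRSF11 was above SRSF5 in 5 of 6.

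The order depended on the measure used. Per kilobase of the longest coding transcript, SRSF1 was still the highest at 99.5, and SRSF9, whose coding transcript has 1201 bases against 3744 merged exon bases, rose to rank 2 at 85.3. The deposited FPKM implied a divisor of 8853 bases for SRSF1, against 3340 merged exon bases, and of 5225 for SRSF6, against 4593. The divisor of SRSF1 exceeds the gene's whole span on the genome, so it cannot be a transcript length. By FPKM SRSF6 led with 70.3 and SRSF1 had 34.98, an order that rests on those divisors. SRSF4 was the lowest by all 3 measures, with 30.3 per kilobase of coding transcript and 5.31 FPKM, so its gap to SRSF1 was narrower by both of these than per merged exons.

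**Figure D4:**
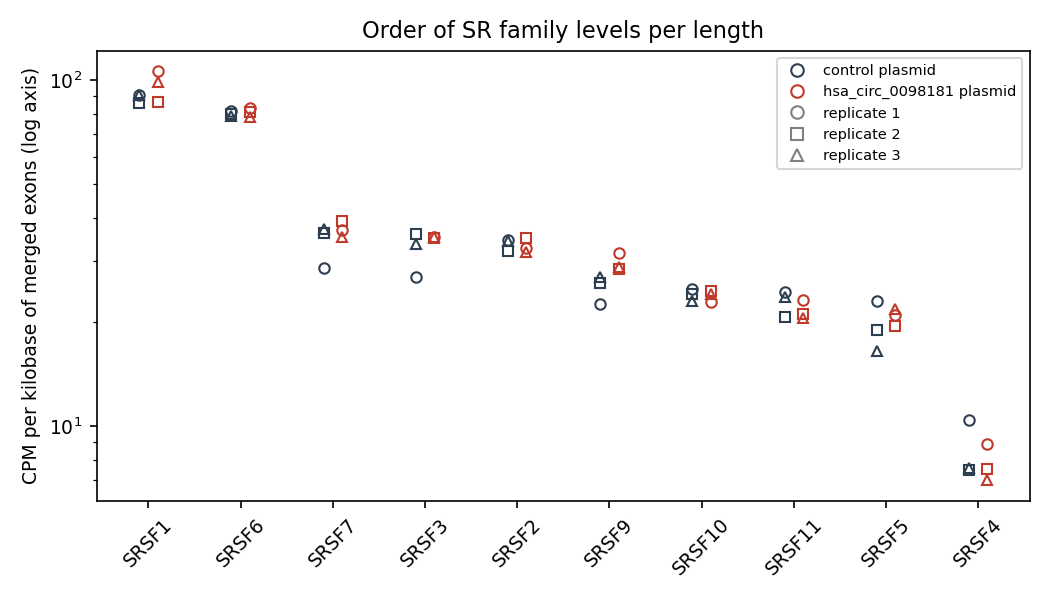
CPM per kilobase of merged exons (vertical log axis) for the SR genes in falling order, with 1 point per library, control in dark blue and overexpression in red. SRSF1 and SRSF6 lie at or above 78.0 in every library, and SRSF4 lies at or below 10.4.

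The genes around the SR proteins were read from 7 lists with 129 tested genes of 130 listed. None of the 129 passed an adjusted p under 0.05 in edgeR's test, and 3 had an unadjusted p under 0.05, where the shares over all genes tested were 0.0399% and 5.50%. The family's own median of 0.050 lay between those of the lists, which ran from -0.081 to 0.064.

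SR proteins are phosphorylated by SRPK and CLK kinases, dephosphorylated by protein phosphatase 1 and carried into the nucleus by transportin. Of 12 tested genes of this kind, 5 were positive and 7 negative, with a median of -0.032. SRPK1, a cytoplasmic kinase of SR proteins, had 153 to 172 CPM with overexpression and 154 to 162 CPM in the control libraries, a log2 fold change of 0.056. CLK1, a nuclear kinase that releases SR proteins from speckles, had 58.9 to 60.7 against 57.9 to 63.9 CPM, a log2 fold change of -0.033. Both groups of values overlapped. The smallest p in each direction belonged to PPP1CA (log2 fold change 0.13, unadjusted p 0.231), a catalytic subunit of protein phosphatase 1, and to the kinase gene DYRK1A (-0.38, unadjusted p 0.0775).

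Of 24 tested genes for other SR and SR-related proteins, 7 were positive and 17 negative, with a median of -0.081, and 0 had an unadjusted p under 0.05. SRSF8, a relative of SRSF2 with 62.5% identity, had 23.4 to 27.3 CPM with overexpression and 23.6 to 27.5 CPM in the control libraries. SRSF12, a relative of SRSF10 with 54.7% identity, had 5.07 to 6.51 against 5.76 to 6.73 CPM. TRA2B, a protein that binds exon enhancers, had a fitted value of 0.089 (SE 0.097).

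SRRM2, a large scaffold protein of nuclear speckles, had 609, 877 and 671 CPM with overexpression and 1243, 744 and 874 CPM in the control libraries. The groups overlapped, and control replicate 1 was the highest. This library was the highest for 14 of the 24 genes. The fitted value of SRRM2 was -0.41 (SE 0.20, unadjusted p 0.0779), and the median of the list was -0.017 without control replicate 1. On the other side, LUC7L2, a U1-associated factor, had a value of 0.25 (unadjusted p 0.179), with 138 CPM in overexpression replicate 3 against 85.1 to 92.1 CPM in the other libraries.

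hnRNP proteins often oppose SR proteins at the same exons. Of 27 tested genes 14 were positive and 13 negative, with a median of 0.011 and 0 at an unadjusted p under 0.05. HNRNPL had 387, 394 and 360 CPM against 318, 339.8 and 346 CPM, values that did not overlap, with a log2 fold change of 0.19 (unadjusted p 0.0533, adjusted p 0.797). PTBP1, a repressor of exons, had 243, 259.7 and 276 CPM against 292, 439.7 and 266 CPM. Control replicate 2 was the highest library, and the fitted value was -0.36 (unadjusted p 0.0759). HNRNPA1, the classical antagonist of SRSF1, had a fitted value of 0.076 (SE 0.10). Reads shared with other copies of this gene were not examined.

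The factors that recognise splice sites with the help of SR proteins gave 11 positive and 8 negative values among 19 tested genes, with a median of 0.037. SNRPA, a protein of the U1 particle, had 40.4, 36.3 and 35.4 CPM with overexpression and 72.8, 57.4 and 39.3 CPM in the control libraries. Control replicate 3 lay among the overexpression values. Its fitted value was -0.59 (SE 0.20) at an unadjusted p of 0.0176, the only one of this list under 0.05, and an edgeR adjusted p of 0.797. SF3B6, a subunit of the U2 particle that touches the branch point, had 94.9, 88.1 and 89.0 CPM against 62.6, 81.8 and 84.4 CPM, a log2 fold change of 0.25 (unadjusted p 0.0782) with groups that did not overlap.

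Nonsense-mediated decay removes the poison-exon forms of SR transcripts. Its 15 tested genes had a median of -0.0095, with 6 positive and 9 negative and 0 at an unadjusted p under 0.05. UPF1, the central helicase of the pathway, had 304 to 351 CPM with overexpression and 277 to 354 CPM in the control libraries. SMG1, the kinase of UPF1, had a value of -0.27 (unadjusted p 0.0967) and MAGOHB, an exon junction protein, a value of 0.15 (unadjusted p 0.294).

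The mRNA export genes, to which SRSF3 and SRSF7 pass their RNAs, had a median of 0.038 with 8 positive and 6 negative of 14 tested, and 0 at an unadjusted p under 0.05. The RNA helicase DDX39B had a value of 0.15 (unadjusted p 0.195) and THOC2 of the THO complex a value of -0.22 (unadjusted p 0.0883). The proliferation list was read beside the family. Its transcripts do not measure growth, and the study reported that proliferation of Huh7 cells was suppressed after delivery of the circle. The study also reported that the cell cycle changed little. The list had a median of 0.064 with 12 positive and 6 negative of 18 tested. It held 2 genes with an unadjusted p under 0.05, against 5.50% of all genes tested. The groups did not overlap for 4 genes that were higher and 1 that was lower, against 12.9% of all genes tested in either direction. E2F1, a transcription factor of the cell cycle, had 48.9 to 61.4 CPM in the control libraries and at least 66.7 CPM with overexpression, values that did not overlap, and a fitted value of 0.32 (unadjusted p 0.0214, edgeR adjusted p 0.797). The mitotic kinase gene AURKB had 45.1, 45.03 and 41.7 CPM against 47.99, 48.03 and 51.6 CPM, values that did not overlap either, and a fitted value of -0.16 (unadjusted p 0.117). MKI67 ranged from 129 to 477 CPM within the control libraries alone.

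**Figure D5:**
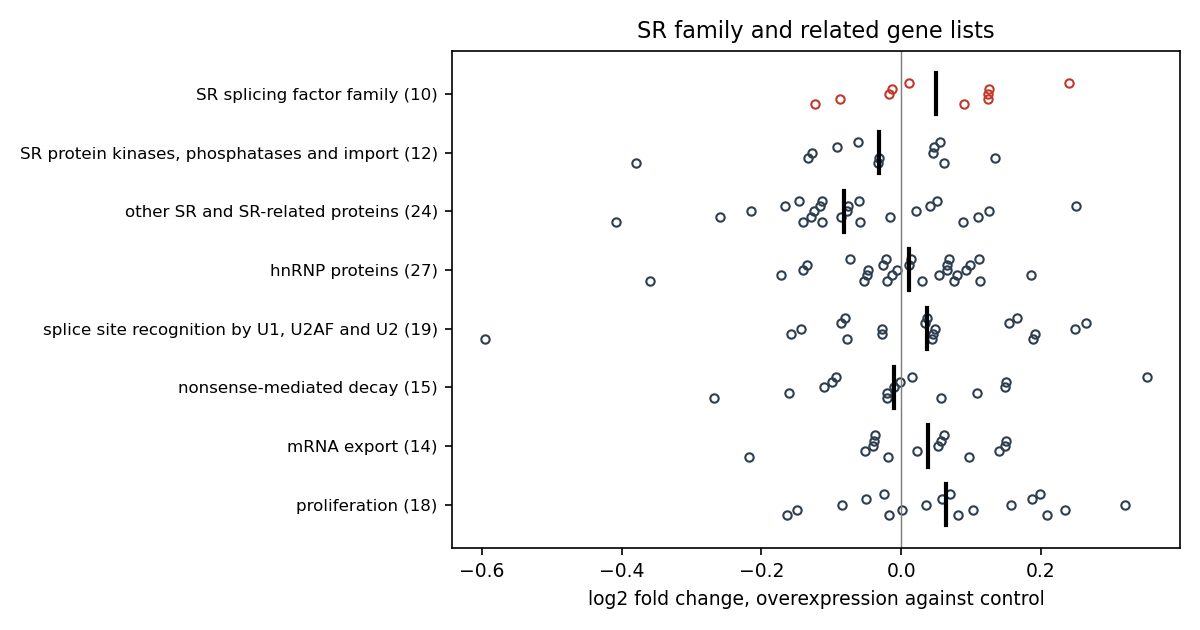
Log2 fold change (horizontal axis, overexpression against control) of each tested gene of the SR family in red and of the 7 related lists in dark blue, with the number of genes in brackets and the median as a black bar. Medians run from -0.081 for other SR and SR-related proteins to 0.064 for proliferation genes.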

How the data were processed

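Total RNA of 6 Huh7 libraries was sequenced by the study. The authors deposited 1 table with raw counts per gene and FPKM values, both per library. TopHat2 2.0.9 and hg38 stand in the submitters' processing notes without a role, and the counting tool, annotation and use of strand are not given in the sources used here. For all 9724 genes with at least 100 counts in each library, count and deposited FPKM implied a single divisor per gene, shared by all libraries within 0.1%. For SRSF1 that divisor was 8853 bases against 3340 merged exon bases. It exceeds the gene's whole span on the genome (chr17:58003360-58007346), so it cannot be a transcript length. FPKM was therefore used as an alternative only.

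The main test was the quasi-likelihood F test of edgeR 4.0.16 in R 4.3.3, on genes kept by filterByExpr (minimum count 10), with TMM factors and no covariate beside the group. P-values were Benjamini-Hochberg adjusted over 15055 genes. CPM used TMM library sizes. Standard errors came from the F statistic and 95% intervals from its degrees of freedom. Tried as alternatives were DESeq2 1.42.0, RLE or upper-quartile scaling, other filters, limma 3.58.1 with trend on log2(FPKM + 1), a replicate block, leaving out each library, and counts summed with pseudogenes or overlapping genes. The edgeR, DESeq2 and limma fits were tested on simulated data. Protein identities came from local BLOSUM62 alignments of translated GENCODE 29 coding sequences. Of the table's gene IDs 98.5% were in GENCODE 29, and the 10 members had identical coordinates there.

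Members and lists were chosen with earlier results of these data known. Named beside the members were SRSF8, SRSF12, SRPK1, CLK1, TRA2B, HNRNPA1, UPF1 and SOX5, the gene with the smallest p in each direction of each list, any list gene past the adjusted threshold, overlapping genes with counts and the 3 genes with the most alike profile. MKI67 was named after its values were seen.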

Additional observations from a re-analysis of the deposited data

How the results depend on the processing

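No SR member passed an adjusted p of 0.05 under any of the 13 other fits, nor after summing with overlapping genes or pseudogenes. At an unadjusted p under 0.05 there were 0 members with DESeq2, 0 with the replicate block and 0 to 1 when a library was left out. Over all genes tested, these fits had 660, 661 and 505 to 1131 genes at that level. SRSF9 then had an unadjusted p of 0.0597 in DESeq2 and of 0.0846 in edgeR with the block. The block changed no other call among the members, and same-numbered libraries did not deviate together (correlations of -0.036, -0.023 and -0.031). These values gave no sign of pairing by number. They cannot exclude a shared culture or day, which the labels do not state.

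Of 137 member values under alternatives 127 kept their direction. SRSF2 turned to 0.0059 under limma, and SRSF10 to 0.0029 with upper-quartile normalization and 0.011 under limma. When a library was left out, SRSF2 ran from -0.058 to 0.011, SRSF4 from -0.23 to 0.053, SRSF5 from -0.016 to 0.23, SRSF6 from -0.0097 to 0.034 and SRSF10 from -0.043 to 0.017. The family's median then ran from -0.00086 without control replicate 3 to 0.046, that of the kinase, phosphatase and import list from -0.067 to 0.028 without control replicate 1, and that of the hnRNP list from -0.024 to 0.054 without overexpression replicate 2. The medians of the mRNA export list (-0.015 to 0.053) and the nonsense-mediated decay list (-0.031 to 0.030) also changed sign. The log2 ratio differences ran from -0.17 to -0.034 for SRSF1 to SRSF9, from -0.035 to 0.046 for SRSF3 to SRSF7, from -0.21 to 0.020 for SRSF4 to SRSF6 and from -0.011 to 0.21 for SRSF5 to SRSF6. Beyond the smaller number of libraries, the cause was not tested.

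Pseudogenes were searched only by symbols that carry a member's name. Those found, of SRSF1, SRSF9 and SRSF10, held at most 2 counts in all, so summing them changed no direction. Pseudogenes under other names were not examined. 19 of 20 levels per kilobase moved by more than 1 SD with another length or with the deposited FPKM. Upper-quartile normalization shifted the median of all genes to 0.018. Over all genes tested, the calls were 6 in edgeR, 28 in DESeq2 and 4 to 16 when a library was left out. The lowest member count was 768. Counting error lay below the SD between libraries in each group, except for SRSF3 with overexpression (1.72% against 0.351%). For SRSF6 in the control libraries they were close (1.54% against 1.68%).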
